A study of Mus musculus with 9 samples.

Results

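The genes described here are the interferon-response and antigen presentation genes of the mouse, measured in cells sorted from bile duct organoids. They were chosen by name alone, as every gene whose symbol begins as the Ifi, Ifit, Ifitm, Isg, Oas, Irf, Stat, Gbp or Mx families do, together with Usp18, Rsad2, B2m, Tap1, Tap2, Psmb8, Psmb9 and all H2- genes of the major histocompatibility complex (MHC), without entries ending in -ps. The rule found 105 of the 32137 genes in the count files, and 74 of them had enough counts to be tested. Organoids were grown from the bile duct cells of 1 male mouse of mixed background and genotype Axin2CreERT2+/-; R26-LSL-tdTom+/-, in which a tamoxifen-inducible Cre is expressed from the Wnt target Axin2 and switches on the red reporter tdTomato. All organoids were differentiated for 11 days and received 3 uM of the glucocorticoid dexamethasone and 500 nM of 4-hydroxytamoxifen (4-OHT) over the last 24 h. The untreated group was the tdTomato-negative cells of organoids given nothing else. The Rspo1-negative and Rspo1-positive groups were the tdTomato-negative and tdTomato-positive cells of organoids that also received 100 ng/ml of R-spondin 1 (Rspo1), a secreted protein that strengthens Wnt signalling. Each group had 3 libraries, from passages 5, 6 and 10 of this 1 line, so p-values between groups measure the spread between cultures of 1 animal and not between animals. Untreated tdTomato-positive cells were not analysed here.

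Interferons are secreted proteins that bind receptors on the cell surface and activate kinases of the Jak family, which phosphorylate Stat proteins. Complexes of Stat proteins with Irf9 then bind an interferon-stimulated response element (ISRE) in the promoters of genes such as Isg15, Ifit1 and Oas1a, and Stat dimers bind a gamma activated sequence (GAS) in genes such as Irf1. MHC class I molecules, made of an H2 heavy chain and the light chain B2m, show peptides from inside the cell to T cells; the peptides are cut by the proteasome, with the interferon-inducible subunits Psmb8 and Psmb9, and carried by the transporter Tap1-Tap2. MHC class II molecules are mainly made by professional antigen-presenting cells, although bile duct cells can make them under inflammation.

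Total counts ranged from 23423979 to 37351448 per library. The 9 biliary markers fixed for the check, such as Krt19 and Sox9, summed to 11900 to 17300 CPM (the count of a gene relative to the size of its library, after TMM scaling) in each library. Leukocyte markers summed to 53.9 to 77.2 CPM over the 9 found in the files, by group 58.4 to 77.2 (untreated), 60.0 to 72.2 (Rspo1-negative) and 53.9 to 68.6 (Rspo1-positive). Most of this sum was Csf1r, at 37.2 to 56.1 CPM, whereas the pan-leukocyte gene Ptprc reached at most 0.133 CPM. Mesenchymal markers summed to at most 1.01 CPM and endothelial markers to at most 0.308 CPM. Over all genes, a trend with GC content set the Rspo1-negative libraries apart: against untreated, the 20% of genes with the lowest GC content had a median log2 fold change of -0.65 and the 20% with the highest 0.26, while Rspo1-positive against untreated gave -0.02 and -0.02. Values that include an offset per gene and library for GC content and transcript length are therefore given beside the results for genes that rest on the Rspo1-negative group.

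Promoter sequences are shown for 6 genes that carry the main results: Isg15 as a standard interferon target, Ifitm3, Irf8, H2-Q6 and H2-Q7, which were higher in the Rspo1-positive group, and Tap1, which was higher in the Rspo1-negative group. Each runs 5′ to 3′ from 250 bases before the start of the transcript to 30 after it, as in RefSeq on GRCm38.p6. Capitals mark the ISRE core GAAANNGAA and the GAS core TTCNNNGAA, searched on both strands, where neighbouring or overlapping matches run together. Isg15 (chr4:156200789-156201068, minus strand) held 3 ISRE cores, Ifitm3 (chr7:141010715-141010994, minus strand) held 2 ISRE cores and 1 GAS core at its start site, and Irf8 (chr8:120736108-120736387, plus strand) held 2 GAS cores. Tap1 (chr17:34187306-34187585, plus strand), H2-Q6 (chr17:35424600-35424879, plus strand) and H2-Q7 (chr17:35438905-35439184, plus strand) held neither exact pattern.
Isg15: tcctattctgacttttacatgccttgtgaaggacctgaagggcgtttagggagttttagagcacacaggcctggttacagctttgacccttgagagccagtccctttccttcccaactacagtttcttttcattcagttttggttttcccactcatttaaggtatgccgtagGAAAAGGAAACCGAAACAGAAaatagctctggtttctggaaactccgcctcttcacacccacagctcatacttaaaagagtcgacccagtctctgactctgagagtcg
Ifitm3: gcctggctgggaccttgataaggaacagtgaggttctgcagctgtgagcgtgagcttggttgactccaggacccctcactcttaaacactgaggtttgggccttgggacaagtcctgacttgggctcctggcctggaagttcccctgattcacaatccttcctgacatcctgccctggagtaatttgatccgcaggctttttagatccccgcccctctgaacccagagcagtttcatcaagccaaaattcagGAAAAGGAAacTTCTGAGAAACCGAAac
Irf8: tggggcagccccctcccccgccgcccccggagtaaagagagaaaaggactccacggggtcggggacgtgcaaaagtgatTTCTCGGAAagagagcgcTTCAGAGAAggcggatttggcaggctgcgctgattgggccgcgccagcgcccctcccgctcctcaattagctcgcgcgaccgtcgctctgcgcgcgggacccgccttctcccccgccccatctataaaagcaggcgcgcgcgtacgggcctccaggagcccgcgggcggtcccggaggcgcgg
Tap1: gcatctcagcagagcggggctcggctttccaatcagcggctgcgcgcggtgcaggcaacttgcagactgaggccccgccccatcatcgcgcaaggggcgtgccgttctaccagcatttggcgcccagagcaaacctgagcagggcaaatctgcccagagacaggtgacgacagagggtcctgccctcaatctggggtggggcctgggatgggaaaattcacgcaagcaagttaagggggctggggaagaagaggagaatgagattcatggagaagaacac
H2-Q6: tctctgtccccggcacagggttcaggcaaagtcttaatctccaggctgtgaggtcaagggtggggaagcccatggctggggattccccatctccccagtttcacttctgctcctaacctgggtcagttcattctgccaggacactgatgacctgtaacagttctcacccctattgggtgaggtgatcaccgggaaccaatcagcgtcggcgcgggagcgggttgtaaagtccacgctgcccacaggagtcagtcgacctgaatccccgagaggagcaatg
H2-Q7: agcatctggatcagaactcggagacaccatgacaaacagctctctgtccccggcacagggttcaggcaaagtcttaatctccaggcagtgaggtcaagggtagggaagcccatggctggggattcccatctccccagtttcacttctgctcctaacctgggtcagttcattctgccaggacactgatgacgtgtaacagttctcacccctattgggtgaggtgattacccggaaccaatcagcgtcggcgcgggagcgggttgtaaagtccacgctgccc

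The H2-Q6 and H2-Q7 windows are near copies of each other and share an unbroken run of 66 bases. The Tap1 window shares 275 bases with that of Psmb9, which is transcribed the other way from the same stretch. RefSeq windows of 300 bases, which reach 50 bases past the start, were found for 77 of the 105 genes. An ISRE core stood in 34.0% of their 94 windows, against 8.56% of all 32851 promoter windows. A GAS core stood in 13.8% against 8.3%. Among class I genes with a window, H2-T22 and H2-T23 held 1 ISRE core each, and H2-K1 and H2-D1 held neither core. A match describes letters only and does not show that a factor binds there. Only these exact letters were searched. A class I window without a match, such as that of H2-Q6, may therefore hold another form of either element.

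The genes spanned a wide range of expression, also within a role. Per length, in deposited FPKM averaged over the 9 libraries, the highest was Ifitm2 at 341, a membrane protein that limits virus entry, followed by H2-K1 at 216, B2m at 207 and H2-D1 at 108. H2-K1, H2-D1 and B2m together held between 29.9% and 41.2% of the summed CPM of all 105 genes in a library. At the other end, 48 of the 105 genes had a mean below 1 CPM, 15 had fewer than 10 counts in all libraries together, and Ifi213 and H2-Aa had none. By role, the genes with enough counts to test were 13 of 20 class I heavy chains, 5 of 5 genes of peptide supply and light chain, 2 of 6 class II genes, 6 of 7 Stat genes, 8 of 9 Irf genes, 4 of 5 Ifitm genes, 8 of 12 Oas genes, 7 of 11 Gbp genes, 5 of 9 genes of the Ifi200 family, 4 of 6 Ifit genes, 1 of 2 Mx genes and 10 of 12 other induced genes, besides H2-Ke6, an enzyme gene of the MHC region that is no MHC chain.

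**Figure D1:**
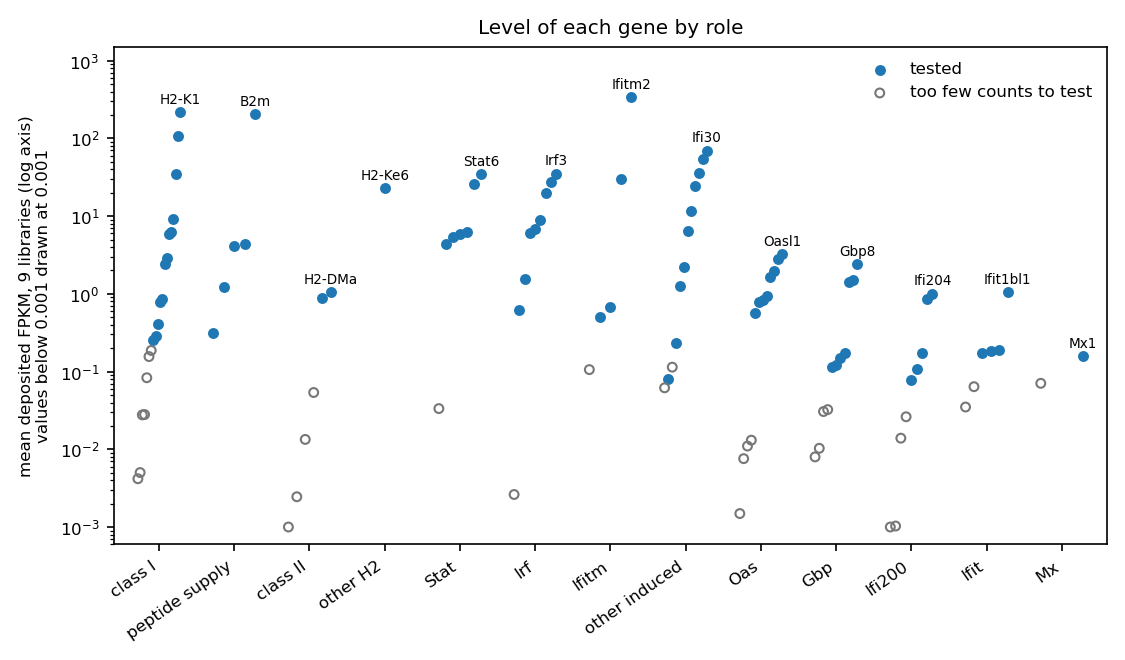
Mean deposited FPKM over 9 libraries (log axis) of each of the 105 genes, by role; filled points were tested and open points had too few counts, with the highest gene of each role named and values below 0.001 drawn at 0.001. Ifitm2 (341), H2-K1 (216) and B2m (207) stand at the top, while the highest Ifit gene, Ifit1bl1, stands at 1.06 and the highest Mx gene, Mx1, at 0.158.

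The light chain B2m was measured at 173, 293 and 145 CPM in the untreated libraries of passages 5, 6 and 10, at 195, 182 and 153 CPM in the Rspo1-negative and at 148, 185 and 137 CPM in the Rspo1-positive libraries. The heavy chain H2-D1 stood at 215, 289 and 193 CPM (untreated), 244, 277 and 263 CPM (Rspo1-negative) and 182, 210 and 181 CPM (Rspo1-positive), in the same order of passages, which is kept below. The untreated library of passage 6 was the highest of its group for both genes. The immunoproteasome subunits were low: Psmb8 ranged from 1.2 to 3.95 CPM and Psmb9 from 0.339 to 1.69 CPM over the 9 libraries. The untreated libraries had 1.2, 3.95 and 1.53 CPM of Psmb8, the Rspo1-negative 2.08, 2.59 and 3.35 CPM and the Rspo1-positive 1.3, 3.24 and 2.21 CPM. For Psmb9 the levels were 0.339, 0.87 and 0.604 CPM (untreated), 0.612, 1.32 and 1.4 CPM (Rspo1-negative) and 0.788, 1.69 and 0.504 CPM (Rspo1-positive). Groups overlapped for B2m, Psmb8 and Psmb9, and none of these, nor H2-D1, passed the test in a comparison of groups; H2-D1 did not overlap between the Rspo1-positive and Rspo1-negative libraries (adjusted p = 0.0654, edgeR's quasi-likelihood test).

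Of class II, the chains that present peptide were at the limit of detection. H2-Aa had no count in any library, H2-Ab1 at most 0.266 CPM and H2-Eb1 at most 0.056 CPM, a total of 25 counts for the 3 genes over all 9 libraries. A count of 0 allows up to 3 counts in a library, or 0.0736 to 0.127 CPM at these depths, for counting error only. The peptide loaders H2-DMa and H2-DMb1, which act inside the cell, were measurable, at 1.08 to 2.35 and 0.776 to 2.1 CPM.

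Of the signalling genes, Stat2, which pairs with Irf9 in the response to type I interferon, had 32.0, 21.8 and 37.2 CPM (untreated), 19.8, 24.5 and 29.9 CPM (Rspo1-negative) and 25.6, 28.5 and 27.3 CPM (Rspo1-positive). Irf9, the DNA-binding part of that complex, had 24.7, 26.4 and 24.1 CPM, then 26.3, 34.4 and 25.3 CPM, and 27.1, 29.4 and 21.9 CPM in these groups. All groups overlapped for both genes. Irf7, which amplifies the response to type I interferon, had 3.57, 4.15 and 5.61 CPM (untreated), 5.67, 5.1 and 8.81 CPM (Rspo1-negative) and 4.01, 3.95 and 4.67 CPM (Rspo1-positive).

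Isg15, a ubiquitin-like protein whose promoter holds the 3 ISRE cores shown above, stayed near 1 CPM: 0.862, 1.14 and 0.892 CPM in the untreated, 1.44, 0.823 and 1.06 CPM in the Rspo1-negative and 0.689, 0.607 and 1.29 CPM in the Rspo1-positive libraries. Ifit1, which binds viral RNA, had 0.523, 0.569 and 0.633 CPM (untreated), 0.932, 0.247 and 0.381 CPM (Rspo1-negative) and 0.739, 0.135 and 0.224 CPM (Rspo1-positive). For Usp18, which removes Isg15 from proteins, the levels were 0.523, 0.268 and 0.259 CPM, 0.932, 0.329 and 0.254 CPM, and 0.468, 0.371 and 0.336 CPM. None of the 3 genes was called in a comparison of groups, and every pair of groups overlapped. Of the other antiviral genes, Ifi44, Mx2 and Rsad2 never reached 1 CPM, and Mx1 ranged from 0.127 to 1.27 CPM. The Oas family included Oasl1 (2.85 to 11.7 CPM) and Oasl2 (6.49 to 14.9 CPM), and the Gbp family of interferon-induced GTPases included Gbp8 (3.9 to 15 CPM) and Gbp9 (3.43 to 12.5 CPM).

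Setting the Rspo1-positive against the untreated libraries asks how cells labelled by the Axin2 reporter under Rspo1 differ from unlabelled cells of organoids without it. Here 4 genes were higher and 2 lower: the entry-restriction gene Ifitm3, the transcription factor Irf8 and the class Ib heavy chains H2-Q6 and H2-Q7 rose, and the exonuclease gene Isg20 and Ifi27l2b fell. The 6 genes are 8.11% of the 74 tested, against 5.21% of all 17011 genes tested; 5.41% of the 74 were higher, against 3.07% of all, and 2.7% were lower, against 2.13%. A gene was called where edgeR's quasi-likelihood test gave an adjusted p under 0.05. The median log2 fold change over the 74 genes was -0.03, beside -0.01 over all genes. Of the biliary markers, Krt19 was lower (log2 fold change -1.06, adjusted p = 0.0127) and Sox9 higher (1.31, adjusted p = 0.0412) in the Rspo1-positive libraries, and their part in these results was not tested. In bulk samples, fewer cells of a type and less RNA per cell cannot be told apart.

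Ifitm3 (chr7:141009586-141010770, GRCm38, protein-coding) had 4.74, 10.1 and 12.5 CPM in the untreated libraries, 19.2, 21 and 27.9 CPM in the Rspo1-negative and 22.8, 31.5 and 32.1 CPM in the Rspo1-positive libraries. Every Rspo1-treated library lay above every untreated one, and the log2 fold change of Rspo1-positive against untreated was 1.65 (SE 0.31, adjusted p = 0.0124). Irf8 (chr8:120736358-120756694), best known from myeloid and B cells, had 0.769, 0.87 and 0.547 CPM (untreated), 3.97, 1.85 and 3.01 CPM (Rspo1-negative) and 2.73, 2.33 and 3.19 CPM (Rspo1-positive). Its log2 fold change was 1.92 (SE 0.34, adjusted p = 0.00903), again with no overlap. Leukocyte marker sums overlapped between these groups, as given above. Ptprc was at or near 0, whereas Csf1r, Cd68 and Itgam were measured above the level of Irf8. The part of the leukocyte markers in the Irf8 result was not tested further.

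H2-Q7 (chr17:35439155-35443773) rose from 0.646, 0.368 and 0.489 CPM in the untreated to 1.4, 1.18 and 1.76 CPM in the Rspo1-positive libraries, with 1.7, 1.4 and 2.12 CPM in the Rspo1-negative (log2 fold change of Rspo1-positive against untreated 1.52, SE 0.34, adjusted p = 0.0278). Its neighbour H2-Q6 (chr17:35424850-35430055) rose from 0.154, 0.301 and 0.115 CPM to 0.837, 0.708 and 1.12 CPM, with 0.532, 0.329 and 0.677 CPM in the Rspo1-negative (2.22, SE 0.48, adjusted p = 0.023). In each, all 3 Rspo1-positive libraries lay above all 3 untreated ones. The untreated libraries held only 5, 9 and 4 counts of H2-Q6, near the limit of 3 counts given above, so the size of its rise is uncertain. Both genes share transcript sequence with each other and with further genes. Of the 75-base stretches of H2-Q6, 21.1% also occur in other genes, among them H2-Q7 and H2-Q4. For H2-Q7 it is 17.0%, with H2-Q10, H2-Q5 and H2-Q6 among the genes. Reads may have been split among these genes, and each value is uncertain.

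Isg20, an RNA exonuclease, had 52.4, 38.1 and 43.3 CPM (untreated), 50.7, 38.0 and 55.6 CPM (Rspo1-negative) and 27.5, 19.3 and 29.3 CPM (Rspo1-positive). Its 3 Rspo1-positive libraries were the lowest of the 9, and it fell by 0.81 on the log2 scale against untreated (SE 0.20, adjusted p = 0.0437). Ifi27l2b, a small membrane protein gene of the Ifi27 family, fell from 7.97, 9.73 and 14.2 CPM in the untreated to 5.15, 3.91 and 6.02 CPM in the Rspo1-positive libraries (log2 fold change -1.08, SE 0.27, adjusted p = 0.0482), with 5.22, 5.02 and 7.58 CPM in the Rspo1-negative. Of these 6 calls, Irf8 held without any 1 library. Ifitm3 lost its call without the Rspo1-positive library of passage 6 (adjusted p = 0.0544). H2-Q6 lost it without the untreated libraries of passages 5 or 10 or any Rspo1-positive one (highest adjusted p = 0.0966), and H2-Q7 without those of passages 6 or 10 or any Rspo1-positive one (0.11). Isg20 held in 3 and Ifi27l2b in 2 of the 9 fits that leave out 1 library, with the highest adjusted p, 0.187 and 0.213, in both cases without the Rspo1-positive library of passage 6. Without that library Irf8 alone was called, and 3 and 2 genes were called without the Rspo1-positive libraries of passages 5 and 10. In these 3 fits 2.23%, 3.71% and 2.98% of all genes were called.

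With passage as a block, all 6 calls were kept and 8 genes were added, so that 14 of the 74 were called (18.9%, against 13.2% of all genes), 7 higher and 7 lower. The added genes included Ifit2, Tap1 and H2-Q4 (higher) and Oasl1, H2-Q10, Gbp8 and Gbp9 (lower), with adjusted p from 0.00199 for Oasl1 to 0.0477 for Tap1. The offset for GC content and length kept 5 of the 6, with an adjusted p of 0.0504 for Ifi27l2b, and called 8.11% of the 74 against 6.14% of all genes.

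**Figure D2:**
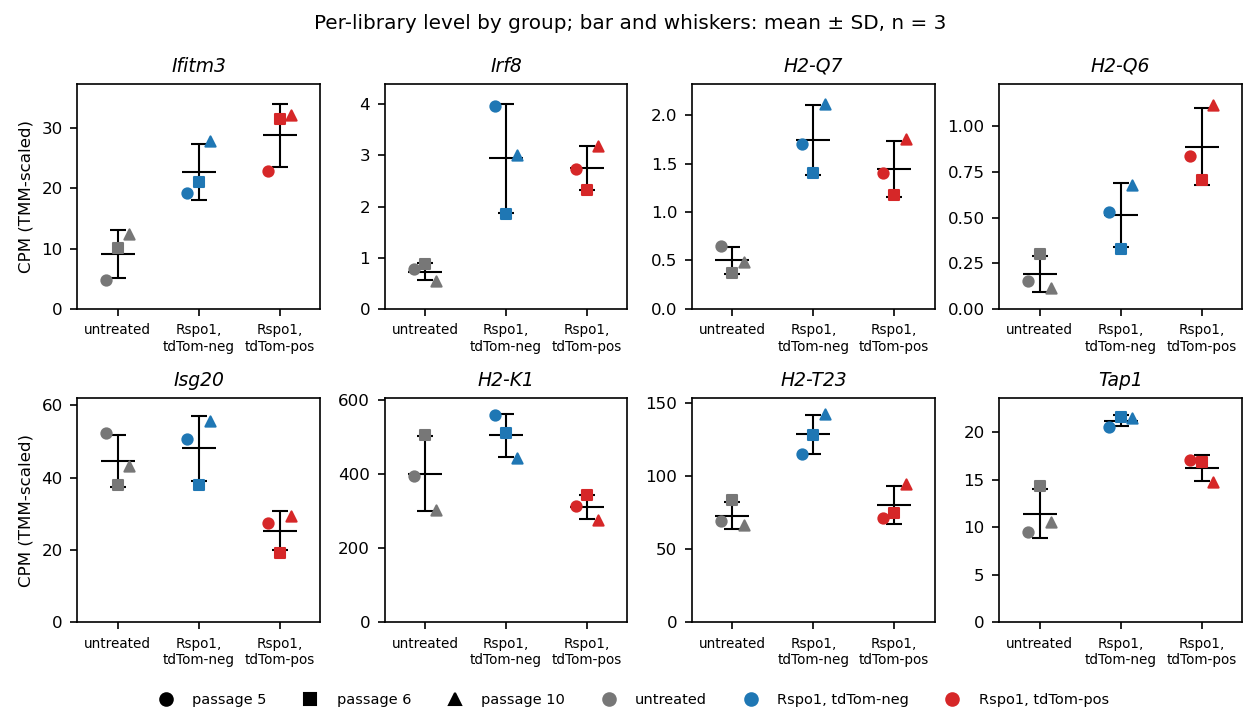
CPM of 8 genes in each of the 9 libraries (vertical axes from 0, TMM-scaled), by group, with marker shape for passage and bars for the mean and SD of 3 libraries. Ifitm3, Irf8 and H2-Q7 are above the untreated libraries in all 6 Rspo1-treated ones, Isg20 is lowest in the Rspo1-positive libraries (19.3 to 29.3 CPM), and H2-T23 and Tap1 are highest in the Rspo1-negative libraries.

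Setting the Rspo1-negative against the untreated libraries asks what differs in cells that were exposed to Rspo1 but did not label with the Axin2 reporter. Of the 74 genes, 8 were higher and 6 lower, 18.9% in all against 21.9% of all genes tested. Of the 74, 10.8% were higher, against 8.0% of all genes, and 8.11% were lower, against 13.9%. The share called is near the background and is not a result about these genes as a set. The genes that rose were Irf8, Ifitm3, Ifitm2, H2-Q7, H2-T23, Tap1, Ifi35 and H2-Ke6, and those that fell included Gbp8, Gbp9, Ifi203, Ifi27l2b and Irf2. The median log2 fold change over the 74 was 0.14, beside -0.02 over all genes, and 0.04 with the offset. The biliary marker Sox9 was also higher (1.05, adjusted p = 0.0381, and 0.0562 with the offset), and its part in these results was not tested.

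Irf8 was 2.02 higher on the log2 scale (SE 0.34, adjusted p = 0.00354) and H2-Q7 1.78 higher (SE 0.34, adjusted p = 0.006). Both kept their calls with the offset, at 1.88 (adjusted p = 0.0137) and 1.70 (adjusted p = 0.0174). Tap1 (chr17:34187553-34197225), the transporter subunit, had 9.48, 14.3 and 10.5 CPM in the untreated, 20.5, 21.6 and 21.5 CPM in the Rspo1-negative and 17.1, 16.9 and 14.7 CPM in the Rspo1-positive libraries, so the 3 groups did not overlap. The Rspo1-negative libraries were higher than the untreated ones by 0.89 on the log2 scale (SE 0.18, adjusted p = 0.00743), and by 0.68 with the offset (adjusted p = 0.0442). Its partner Tap2 had 9.66, 23 and 13.7 CPM, 11.1, 20.3 and 17.6 CPM, and 11.4, 14.8 and 14.8 CPM in the untreated, Rspo1-negative and Rspo1-positive libraries, and these overlapped. The class Ib chain H2-T23, a ligand of receptors on natural killer cells, rose from 69.2, 83.4 and 66.2 CPM to 115, 128 and 142 CPM, with 71.0, 74.8 and 94.7 CPM in the Rspo1-positive libraries (0.82, SE 0.15, adjusted p = 0.00541, and 0.52 with the offset, adjusted p = 0.0484). Irf8, H2-Q7, Tap1 and H2-T23 kept their calls in every alternative run for this comparison.

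Ifitm3 rose by 1.31 (SE 0.31, adjusted p = 0.0153). Its adjusted p was 0.0605 with the offset, where the log2 fold change was 1.07, and 0.0513 without the Rspo1-negative library of passage 10. Ifitm2 rose from 169, 227 and 168 CPM to 307, 261 and 304 CPM, with 181, 191 and 210 CPM in the Rspo1-positive libraries (0.63, SE 0.15, adjusted p = 0.0166). The rise was 0.31 with the offset (adjusted p = 0.188), and 40.9% of the gene's exon length is shared with other annotated genes, so its counts are uncertain. It also lost the call without the untreated or Rspo1-negative library of passage 5 or of passage 10 (highest adjusted p = 0.065). Ifi35, which binds Nmi, rose from 31.5, 28.1 and 26.3 CPM to 48.6, 39.3 and 40.8 CPM, with 26.6, 30.8 and 29.2 CPM in the Rspo1-positive (0.59, SE 0.14, adjusted p = 0.0142); the offset gave 0.22 (adjusted p = 0.277), and the call was lost without the Rspo1-negative library of passage 5 (0.0544). H2-Ke6 rose from 23.1, 20 and 30.1 CPM to 37.4, 34.9 and 41.1 CPM, with 22.9, 28.0 and 31.3 CPM in the Rspo1-positive. Its adjusted p was 0.0303, and 0.551 with the offset, at log2 fold changes of 0.63 and 0.17; 65.5% of its 75-base stretches occur in another annotated gene, and the call was lost without any of 4 libraries (highest adjusted p = 0.0884, without the untreated library of passage 5).

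Among the genes that fell, Gbp8 went from 9.6, 12.2 and 15 CPM in the untreated to 3.94, 7.2 and 3.9 CPM in the Rspo1-negative libraries, with 6.03, 7.25 and 8.34 CPM in the Rspo1-positive (log2 fold change -1.29, SE 0.28, adjusted p = 0.0105). Gbp9 went from 9.17, 12.5 and 10.9 CPM to 5.19, 6.71 and 3.43 CPM, with 6.33, 7.99 and 6.55 CPM in the Rspo1-positive (-1.09, SE 0.25, adjusted p = 0.0139). For both, every untreated library lay above every other one. With the offset the adjusted p was 0.068 for Gbp8 and 0.294 for Gbp9, at -0.91 and -0.42, and Gbp9 lost its call without the Rspo1-negative library of passage 10 (0.0525). Irf2, an antagonist of Irf1, fell from 38.7, 50.9 and 37.3 CPM to 26.5, 35.3 and 23.8 CPM, with 36.2, 38.8 and 32.4 CPM in the Rspo1-positive. Its log2 fold change was -0.57 (adjusted p = 0.0452, and 0.251 with the offset), and it held in 2 of the 9 fits that leave out 1 library (highest 0.191, without the Rspo1-negative library of passage 10).

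Ifi203, a DNA-binding protein gene of the Ifi200 family on chromosome 1, was near the detection limit in the Rspo1-negative libraries, at 0.16, 0.329 and 0.0847 CPM against 0.708, 1.0 and 0.72 CPM in the untreated and 0.763, 1.72 and 0.476 CPM in the Rspo1-positive. In the Rspo1-negative libraries its log2 fold change from untreated was -2.07 (SE 0.61, adjusted p = 0.0336), and -1.31 with the offset (adjusted p = 0.225). It lost the call without any untreated library or the Rspo1-negative library of passage 5 or 10 (highest 0.118). Ifi27l2b had an adjusted p just under the threshold that rounds to 0.05 (log2 fold change -0.84, SE 0.27). With the offset its fall was 1.21 on the log2 scale (log2 fold change -1.21, adjusted p = 0.0266), and it held in 1 of the 9 fits that leave out 1 library (highest 0.171, without the untreated library of passage 10).

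With passage as a block 24 of the 74 were called (32.4%, against 35.5% of all genes), 16 higher and 8 lower. All 14 calls were kept, and 10 genes were added, Irf3, Irf7, H2-DMb1, H2-T22, H2-Q4, H2-Q6, Oas1a and Oas1c as higher and Oasl1 and Ifi204 as lower, with adjusted p from 0.0138 for Oasl1 to 0.0498 for H2-Q6. With the offset 5 of the 14 calls were kept, 4 higher and 1 lower, which is 6.76% of the 74 against 8.8% of all genes. The block and the offset together called 11, 5 higher and 6 lower, and kept 9 of the 14. Of all genes, 21.8% were called under both together. Upper-quartile scaling moved the split to 12 higher and 4 lower. Over all genes that were called, it moved the share that was higher from 36.5% to 49.5%. How far the GC trend contributes to the other 9 calls was not tested beyond these values.

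The labelled and unlabelled cells of Rspo1-treated organoids were split by the reporter alone, and setting one against the other asks what sets the labelled cells apart. Of the 74 genes, 1 was higher and 10 lower in the Rspo1-positive libraries, 14.9% in all against 24.3% of all genes. The higher gene is 1.35% of the 74, against 14.6% of all genes, and the lower ones are 13.5% against 9.78%. The lower genes included 4 of the 13 tested class I heavy chains, H2-K1, H2-T22, H2-T23 and H2-Q10, and further H2-DMb1, Ifitm2, Ifi35, Isg20, Stat5a and Stat6. Ifi203 was higher. The median log2 fold change was -0.13 over the 74, -0.30 over the 13 class I genes and 0.03 over all genes tested. With the offset the median over the 74 was -0.04. Over all genes, the 20% with the lowest GC content had a median of 0.65 here and the 20% with the highest -0.29. The median GC content was 52.1% over the 74 and 49.9% over all genes tested. How far this trend contributes to the class I median was not tested. The biliary markers Krt19 (-0.78, adjusted p = 0.0196, and 0.316 with the offset) and Krt8 (-0.57, adjusted p = 0.0337, and 0.549 with the offset) were also lower, and their part in these results was not tested.

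H2-K1 (chr17:33996017-34000347), a classical class I heavy chain and the most abundant of the family, had 395, 507 and 304 CPM in the untreated, 560, 512 and 445 CPM in the Rspo1-negative and 315, 344 and 278 CPM in the Rspo1-positive libraries. It was lower in the Rspo1-positive libraries without overlap, by 0.70 on the log2 scale (log2 fold change -0.70, SE 0.19, adjusted p = 0.0263). The untreated libraries spanned both groups. With the offset the difference was -0.34 (adjusted p = 0.293). H2-T23 gave -0.68 (SE 0.15, adjusted p = 0.0113), and -0.38 with the offset (adjusted p = 0.122). H2-T22, a class Ib chain recognised by gamma delta T cells, had 22.9, 30.3 and 23.9 CPM, 32.8, 32.8 and 41.4 CPM, and 21.2, 20.6 and 24.8 CPM in the untreated, Rspo1-negative and Rspo1-positive libraries. Its difference of -0.68 (SE 0.16, adjusted p = 0.0141) was -0.57 with the offset (adjusted p = 0.0443), and 40.0% of its 75-base stretches occur elsewhere, so its counts are uncertain.

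H2-Q10, a class I chain that is secreted by the liver, was the class I gene with the largest called difference here. It had 5.11, 4.21 and 3.43 CPM in the untreated, 6.39, 3.91 and 4.28 CPM in the Rspo1-negative and 2.29, 1.82 and 2.07 CPM in the Rspo1-positive libraries. The 3 Rspo1-positive libraries were the lowest of the 9, at a log2 fold change of -1.24 against Rspo1-negative (SE 0.27, adjusted p = 0.00974). The call was kept in every alternative, with -1.14 (adjusted p = 0.036) under the offset; 12.5% of its 75-base stretches occur in another gene. Against untreated the same gene missed the threshold (adjusted p = 0.0508) and passed it with passage as a block (0.00654).

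Isg20 was 0.92 lower on the log2 scale in the Rspo1-positive than in the Rspo1-negative libraries (log2 fold change -0.92, SE 0.20, adjusted p = 0.0103), and held without any 1 library, but the offset gave -0.45 (adjusted p = 0.155). With the offset and passage as a block together its adjusted p was 0.0151. Ifitm2 and Ifi35 were lower by -0.58 (SE 0.15, adjusted p = 0.0207) and -0.57 (SE 0.14, adjusted p = 0.0142), with adjusted p of 0.308 and 0.364 under the offset. H2-DMb1, at 0.954, 1.24 and 0.777 CPM, 1.92, 2.1 and 1.57 CPM, and 0.837, 0.776 and 0.979 CPM, was highest in the Rspo1-negative libraries (-1.10, SE 0.30, adjusted p = 0.0244; 0.153 with the offset). Stat6, which carries interleukin-4 signals, had 146, 126 and 124 CPM, 158, 147 and 138 CPM, and 125, 108 and 105 CPM in the untreated, Rspo1-negative and Rspo1-positive libraries (-0.39, SE 0.13, adjusted p = 0.0486). Stat5a, which carries growth hormone and prolactin signals, had 15.8, 19.4 and 16.1 CPM, 19.4, 21.4 and 21.3 CPM, and 14.4, 16.1 and 14.8 CPM (-0.46, SE 0.15, adjusted p = 0.0456). Neither Stat gene passed with the offset (0.352 and 0.385).

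Ifi203 was 2.35 higher on the log2 scale in the Rspo1-positive than in the Rspo1-negative libraries (SE 0.60, adjusted p = 0.0188), and 1.63 higher with the offset (adjusted p = 0.127). It lost its call without the Rspo1-negative libraries of passages 5 or 10 or the Rspo1-positive one of passage 6 (highest 0.0777). Leaving out the Rspo1-positive library of passage 5 took away the calls of H2-T22 (0.0584), H2-T23 (0.0553), H2-K1, H2-DMb1, Ifi35, Ifitm2, Stat5a and Stat6. H2-T22 was also lost without the Rspo1-positive library of passage 6, and Ifi35 without the Rspo1-negative one of passage 5 (highest for Ifi35, 0.0655). Ifitm2 held in 5 of the 9 fits (highest 0.0845), H2-K1 and H2-DMb1 in 4 each (highest 0.0938 and 0.0861), and Stat5a and Stat6 in 2 each (highest 0.146 and 0.159).

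Passage as a block kept all 11 calls and added 14 genes, so that 25 of the 74 were called (33.8%, against 38.9% of all genes), 6 higher and 19 lower. H2-D1 was among the added lower genes (adjusted p = 0.0171), and Ifit2 (0.0208), Oas2 (0.0169), Ifi205 (0.0324), Irf2 (0.0349) and Irf5 (0.0456) were the added higher ones. With the offset 3 genes were called, 1 higher and 2 lower, which is 4.05% against 8.54% of all genes: H2-Q10 and H2-T22 remained lower, and Irf5, with 10.5, 13.5 and 11.4 CPM in the Rspo1-negative and 15.2, 15.2 and 15.4 CPM in the Rspo1-positive libraries, was called higher (adjusted p = 0.0248). The block and the offset together called 9, 5 higher and 4 lower, and kept 4 of the 11. Of all genes, 23.6% were called under both together.

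**Figure D3:**
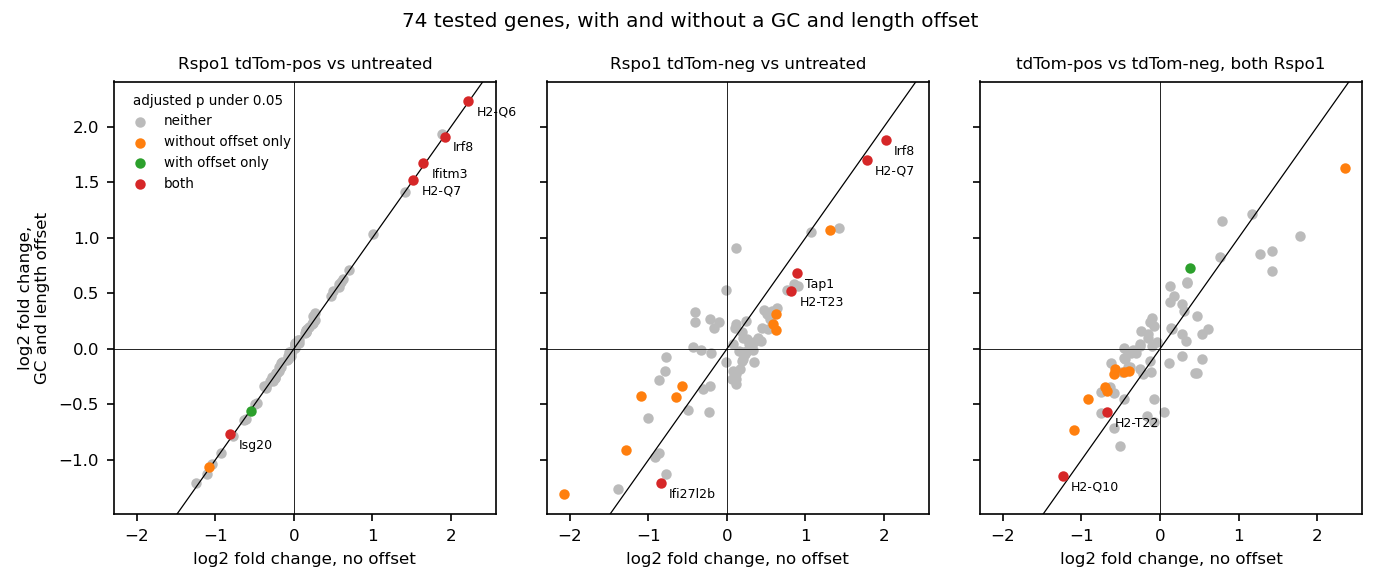
Log2 fold change of the 74 tested genes without (horizontal) and with (vertical) an offset for GC content and transcript length, in the 3 comparisons of groups; colours show under which fit the adjusted p was under 0.05, and the diagonal marks equal values. Points lie close to the diagonal for Rspo1-positive against untreated, where 5 of 6 calls were kept. Where Rspo1-negative libraries are compared, the median moved towards 0, from 0.14 to 0.04 (against untreated) and from -0.13 to -0.04 (Rspo1-positive against Rspo1-negative). There 5 of 14 and 2 of 11 calls were kept. Not every point moved that way: Ifi27l2b moved away from 0 against untreated.

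Passage of the organoid line was compared in the same way, with group as a term. Each passage holds 1 library of each group, so that passage and anything else shared by the 3 libraries of a passage cannot be told apart. A passage was 1 harvest of 1 line, so its 3 libraries are not independent cultures in time. The p-values between passages therefore do not measure the spread between harvests. Between passages 5 and 10, 8 genes were higher and 3 lower at passage 10, 14.9% of the 74 against 9.07% of all genes. By direction, 10.8% were higher, against 4.57% of all genes, and 4.05% lower, against 4.5%. Between passages 6 and 10, 5 were higher and 4 lower at passage 10, 12.2% against 8.45% of all genes (higher 6.76% against 4.4%, lower 5.41% against 4.05%). Between passages 5 and 6, Tap2 was higher and Ifitm10 lower at passage 6, 2.7% against 2.49% of all genes, with 1.35% in each direction against 1.16% of all genes higher and 1.33% lower. Medians over the 74 genes were 0.00 (10 against 5), 0.13 (6 against 5) and -0.07 (10 against 6), beside 0.01, 0.00 and 0.00 over all genes.

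Ifitm10, an Ifitm family member with no known antiviral role, showed the smallest adjusted p of all these genes in any comparison. It had 1.38, 1.97 and 1.21 CPM at passage 5 in the untreated, Rspo1-negative and Rspo1-positive libraries, 0.669, 0.782 and 0.472 CPM at passage 6, and 3.34, 3.77 and 2.15 CPM at passage 10. No 2 passages overlapped. The log2 fold change was 2.26 for passage 10 against 6 (SE 0.26, adjusted p = 0.000965), 1.01 for 10 against 5 (SE 0.23, adjusted p = 0.0229) and -1.24 for 6 against 5 (SE 0.26, adjusted p = 0.0346). The first held in every alternative; the others held in 3 and 2 of the 9 fits that leave out 1 library (highest adjusted p 0.131 without the untreated and 0.18 without the Rspo1-negative library of passage 5).

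Ifi204, a DNA sensor of the Ifi200 family, had 2.52, 1.09 and 2.09 CPM at passage 5, 1.61, 1.15 and 1.75 CPM at passage 6 and 4.63, 2.88 and 3.47 CPM at passage 10, again in the order untreated, Rspo1-negative, Rspo1-positive. Every library of passage 10 was above every other one, and the log2 fold change was 1.28 against passage 6 (SE 0.24, adjusted p = 0.01) and 0.98 against passage 5 (SE 0.23, adjusted p = 0.0264). Its family member Ifi207 went the other way, from 0.831, 0.373 and 1.28 CPM at passage 5 to 0.23, 0.0423 and 0.084 CPM at passage 10 (-2.75, SE 0.57, adjusted p = 0.0144). These levels are low, and Ifi207 lost its call without the Rspo1-positive library of passage 5 (0.111), the Rspo1-negative one of passage 5 or the Rspo1-positive one of passage 10.

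Of the 13 tested class I heavy chains, 3 were called higher at passage 10 than at passage 5. The other 10, among them H2-K1 and H2-D1, were not called. Of all genes tested, 4.57% were called higher. The median log2 fold change over the 13 was 0.13, with 8 of them above 0, beside a median of 0.01 over all genes. H2-Q2 had 5.91, 6.81 and 5.64 CPM at passage 5, 6.15, 6.21 and 4.12 CPM at passage 6 and 9.64, 14.4 and 8.12 CPM at passage 10, a log2 fold change of 0.77 against passage 5 (SE 0.18, adjusted p = 0.0218) and 0.95 against passage 6 (SE 0.18, adjusted p = 0.00958). H2-M3, which presents bacterial peptides, had 2.34, 3.94 and 2.29 CPM at passage 5 and 4.92, 6.77 and 5.82 CPM at passage 10 (1.05, SE 0.20, adjusted p = 0.0098), with 3.71, 4.28 and 4.08 CPM at passage 6. H2-Q4 had 9.02, 13.0 and 15.8 CPM at passage 5, 11.7, 17.4 and 18.6 CPM at passage 6 and 17.5, 20 and 22.6 CPM at passage 10 (0.70 for 10 against 5, SE 0.14, adjusted p = 0.0131). In all 3 genes each library of passage 10 was above each of passage 5. Without the untreated library of passage 5 the calls of H2-M3 and H2-Q4 were lost (highest for H2-Q4, 0.0924), as was that of H2-Q2 against passage 5, whose highest adjusted p, 0.156, came without the Rspo1-negative library of passage 5. H2-M3 reached 0.0657 without the Rspo1-positive library of passage 5.

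Stat3, which carries interleukin-6 signals, rose from 129, 123 and 136 CPM at passage 5 through 152, 170 and 145 CPM at passage 6 to 189, 211 and 182 CPM at passage 10 (0.58 for 10 against 5, SE 0.12, adjusted p = 0.0144). Ifi27l2a rose to 1.35, 2.12 and 1.6 CPM at passage 10, from 0.523, 0.745 and 0.886 CPM at passage 5 and 0.268, 0.864 and 0.843 CPM at passage 6 (1.24, adjusted p = 0.0394, and 1.43, adjusted p = 0.0278). Ifitm3 was called higher at passage 10 than at passage 5 within groups (0.77, adjusted p = 0.0284), although passages overlapped over all groups. Isg20 was 0.45 higher at passage 10 than at passage 6 (adjusted p = 0.0451), also with overlap, and its call was lost with the offset (0.0526). These calls held in few of the 9 fits that leave out 1 library: Stat3 in 4 (highest 0.118), Ifi27l2a in 2 and 3 (0.221 and 0.113), Ifitm3 in 3 (0.123) and Isg20 in 2 (0.224). The highest value came without the Rspo1-negative library of passage 5 for Stat3 and for Ifi27l2a against passage 5, without the untreated library of passage 10 for Ifi27l2a against passage 6, without the untreated one of passage 5 for Ifitm3 and without the Rspo1-negative one of passage 10 for Isg20.

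Irf1, an interferon-induced activator whose promoter window held 1 GAS core, had 36.3, 50.1 and 46.2 CPM at passage 5, 48.9, 53.4 and 50.1 CPM at passage 6 and 31.4, 33.1 and 34.0 CPM at passage 10. The 3 libraries of passage 10 were the lowest of the 9, and it fell by 0.63 on the log2 scale against passage 6 (log2 fold change -0.63, SE 0.12, adjusted p = 0.00907) and by 0.42 against passage 5 (adjusted p = 0.048). Gbp2 had 2.12, 3.57 and 2.22 CPM, 7.99, 5.93 and 4.05 CPM, and 1.44, 3.01 and 2.07 CPM at passages 5, 6 and 10, so that passage 6 was highest, and fell by 1.49 from passage 6 to 10 (log2 fold change -1.49, SE 0.30, adjusted p = 0.0123). Gbp6 fell likewise, from 1.5, 1.23 and 0.978 CPM to 0.662, 0.254 and 0.196 CPM (-1.76, SE 0.47, adjusted p = 0.0442), and 67.3% of its 75-base stretches occur in other genes. Tap2 rose from 9.66, 11.1 and 11.4 CPM at passage 5 to 23, 20.3 and 14.8 CPM at passage 6 (0.84, SE 0.18, adjusted p = 0.0331). Oasl1 fell by 0.80 from passage 5 to 10 (log2 fold change -0.80, adjusted p = 0.0441) and Irf2 by 0.43 from passage 6 to 10 (adjusted p = 0.0436), both with overlapping passages.

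Irf1 against passage 6 lost its call without the Rspo1-positive library of passage 10 (0.051) and Gbp2 without the untreated library of passage 10 (0.0647). Irf2 held in 0 of the 9 fits that leave out 1 library (highest 0.134), Irf1 against passage 5 in 2 (0.238), Gbp6 in 3 (0.181), Oasl1 in 3 (0.193), Ifi204 against passage 5 in 3 (0.167) and Tap2 in 4 (0.222). Those highest values came without the untreated library of passage 10 for Irf2, the Rspo1-negative one of passage 5 for Irf1 and Ifi204, the Rspo1-positive one of passage 10 for Gbp6, the Rspo1-positive one of passage 5 for Oasl1 and the untreated one of passage 5 for Tap2. H2-Q2 against passage 6 lost its call without the Rspo1-positive library of passage 6 or the Rspo1-negative one of passage 10 (0.0656). Of the leukocyte markers tested, Cd68 was lower and Itgam higher at passage 10 than at passage 5 (log2 fold changes -1.39 and 1.09, adjusted p = 0.00108 and 0.00288), and the biliary marker Sox9 was higher (0.93, adjusted p = 0.00292); their part in the passage results was not tested.

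**Figure D4:**
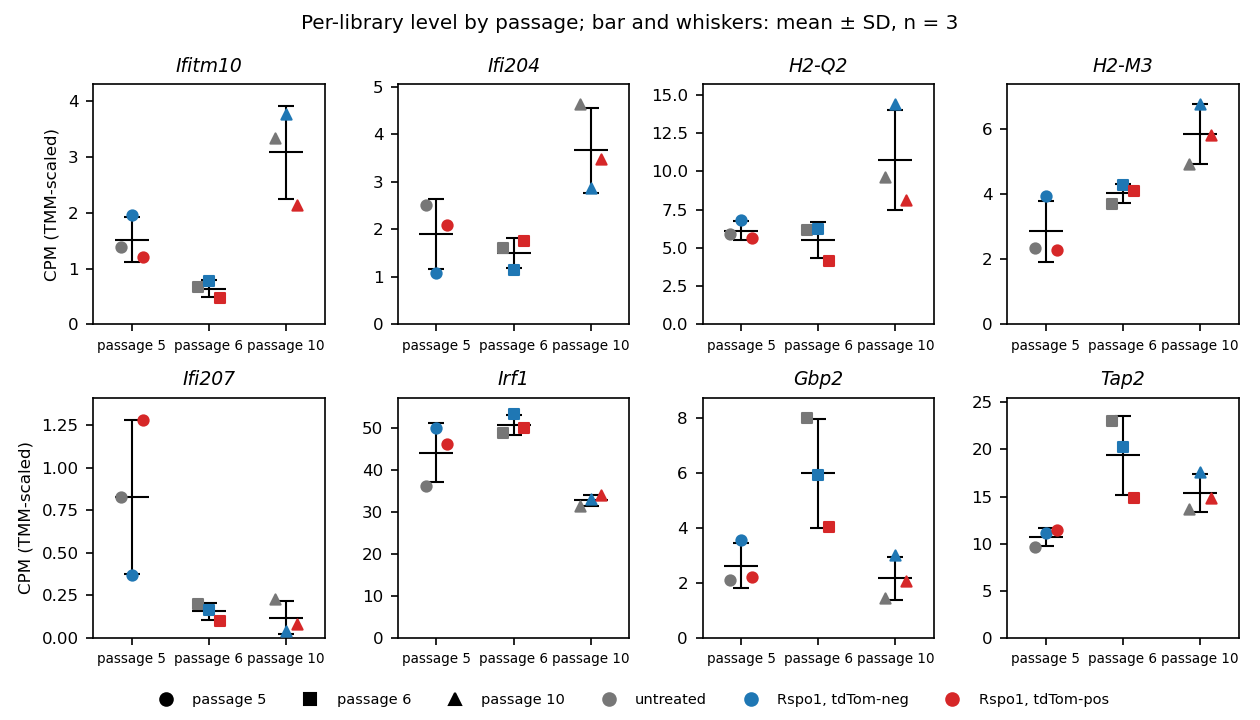
CPM of 8 genes in each of the 9 libraries (vertical axes from 0, TMM-scaled), by passage, with colour for group and bars for the mean and SD of 3 libraries. Ifitm10, Ifi204, H2-Q2 and H2-M3 are highest at passage 10, Irf1 is lowest there (31.4 to 34.0 CPM), Ifi207 is highest at passage 5, and Gbp2 (4.05 to 7.99 CPM) is highest at passage 6.

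The signalling genes outside the rule give the state of the pathway around these genes. Of 16 receptors, kinases, regulators and interferons found in the files, 13 were tested. Ifnb1 had a count of 0 in every library, under the same limit of 0.0736 to 0.127 CPM, while Ifnk and Ifne had 2 counts each in all. The receptor chain Ifngr1 had 342, 332 and 300 CPM in the untreated, 228, 206 and 215 CPM in the Rspo1-negative and 245, 204 and 231 CPM in the Rspo1-positive libraries. Every untreated library was above every Rspo1-treated one, and the log2 fold change was -0.59 for Rspo1-negative (SE 0.13, adjusted p = 0.0108; -0.63 with the offset, adjusted p = 0.0127) and -0.52 for Rspo1-positive (SE 0.13, adjusted p = 0.0427). Jak2, the kinase bound to that receptor's partner chain, was lowest in the Rspo1-negative libraries, at 19.1, 25.5 and 16.6 CPM against 43.3, 44.0 and 41.8 CPM (untreated) and 41.8, 36.1 and 37.1 CPM (Rspo1-positive). It fell by 1.08 against untreated (log2 fold change -1.08, SE 0.16, adjusted p = 0.00211; -0.57 with the offset, adjusted p = 0.0264). Counted by direction, this list had 0 higher and 1 lower for Rspo1-positive against untreated, 0 and 3 for Rspo1-negative against untreated (with Pias1) and 3 and 0 for Rspo1-positive against Rspo1-negative (Jak2, Pias1 and Ptpn2), and 0 in each comparison of passages. These are 7.69%, 23.1% and 23.1% of the 13, against 5.21%, 21.9% and 24.3% of all genes called, so the shares are near the background. Its medians in these 3 group comparisons were -0.17, -0.29 and 0.07, and -0.18, -0.03 and -0.02 with the offset. Ifngr1 held for Rspo1-positive in 1 of the 9 fits that leave out 1 library (highest adjusted p = 0.226, without the Rspo1-positive library of passage 6) and lost its call for Rspo1-negative without that group's library of passage 10 (0.0602). Between the treated groups the offset gave 0.39 for Jak2 (adjusted p = 0.0893), -0.10 for Pias1 and -0.02 for Ptpn2, so no direction is given for the last 2.

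Of 32 sensors and further interferon-stimulated genes found in the files, 30 were tested. Against untreated, the Rspo1-negative libraries were lower in 6 and higher in 0, the Rspo1-positive libraries higher in 1 (Cgas) and lower in 0. Rspo1-positive against Rspo1-negative gave 6 higher and 0 lower: Cgas, Eif2ak2, Herc6, Ifih1, Parp14 and Tlr3. The 6 genes are 20% of the 30 in each case, against 21.9% of all genes called for Rspo1-negative against untreated (13.9% lower) and 24.3% between the treated groups (14.6% higher), and the 1 gene is 3.33% against 5.21%, so no share stands apart as a result about the list. With the offset 2 of the 6 lower genes (Eif2ak2 and Tlr3) and 1 of the 6 higher ones (Eif2ak2) were called. Tlr3, a receptor for double-stranded RNA, had 151, 140 and 141 CPM (untreated), 64.3, 45.8 and 48.7 CPM (Rspo1-negative) and 107, 71.7 and 122 CPM (Rspo1-positive), a log2 fold change of -1.45 for Rspo1-negative from untreated (SE 0.20, adjusted p = 0.00155; -0.67 with the offset, adjusted p = 0.0394). Eif2ak2, the RNA-activated kinase that halts translation, had 35.3, 33.1 and 41.9 CPM, 14.8, 16.5 and 11.1 CPM, and 33.8, 32.0 and 37.9 CPM (-1.38, SE 0.17, adjusted p = 0.00125; -0.93 with the offset, adjusted p = 0.00974). Between the treated groups the offset gave 0.83 for Eif2ak2 (adjusted p = 0.0147), 0.97 for Cgas (0.131), 0.75 for Herc6 (0.183), 0.26 for Ifih1 (0.437), 0.68 for Parp14 (0.102) and 0.14 for Tlr3 (0.642). Without 1 library at a time, Cgas lost this call in 5 of the 9 fits (highest 0.147, without the Rspo1-positive library of passage 5), and Ifih1 lost it without the Rspo1-negative library of passage 10 (0.0553). Against untreated, the offset took away the calls of Ifih1, Parp14, Samd9l and Trim25. Cgas, the sensor of cytosolic DNA, had 2.31, 1.64 and 1.15 CPM, 2.79, 2.26 and 1.44 CPM, and 7.66, 4.62 and 3.5 CPM in the untreated, Rspo1-negative and Rspo1-positive libraries (1.63 for Rspo1-positive against untreated, SE 0.38, adjusted p = 0.0345), and it held in 4 of the 9 fits that leave out 1 library (highest 0.13, without the Rspo1-positive library of passage 5). The medians in the 3 group comparisons were -0.01 (Rspo1-positive against untreated), -0.14 (Rspo1-negative against untreated) and 0.29 (Rspo1-positive against Rspo1-negative), and -0.02, -0.02 and 0.14 with the offset. With passage, Samd9l fell from 5 to 10 (-1.25, adjusted p = 0.000516) and from 6 to 10 (-0.90, adjusted p = 0.00246), Cgas fell and Uba7 rose from 5 to 10, and Dtx3l and Trim21 fell from 6 to 10. Without 1 library at a time, Cgas lost its call in 4 fits (highest 0.0872, without the Rspo1-positive library of passage 5), Uba7 in 5 (0.138, without the untreated library of passage 10) and Trim21 in 4 (0.11, without the same untreated library). From 5 to 10 and from 6 to 10, 10% of the 30 were called, against 9.07% and 8.45% of all genes.

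Of 17 further antigen presentation genes, all in the files, 15 were tested. None was called for Rspo1-positive against untreated by edgeR. Rfxank, a part of the complex that drives class II promoters, was higher in the Rspo1-negative libraries, at 53.5, 47.9 and 54.4 CPM against 37.3, 36.7 and 36.2 CPM in the untreated and 36.7, 42.2 and 39.1 CPM in the Rspo1-positive (0.50 against untreated, adjusted p = 0.0131; 0.143 with the offset). The peptide trimmer Erap1 and the chaperone Canx were called lower in the Rspo1-negative libraries against untreated, and Erap1 was called higher and Rfxank lower (0.352 with the offset) for Rspo1-positive against Rspo1-negative. These are 20% and 13.3% of the 15, against 21.9% and 24.3% of all genes called, and no gene of the list was called with the offset in a comparison of groups. With the offset Erap1 changed its sign in both comparisons and Canx stood at 0.00, so no direction is given for them. The class II transactivator Ciita reached at most 0.847 CPM, and Nlrc5, the activator of class I genes, at most 0.288 CPM. Cd74, the invariant chain of class II, fell from passage 6 to passage 10 (-1.78, adjusted p = 0.0156), at 0.317 to 2.58 CPM over the 9 libraries, and lost its call without the untreated library of passage 10 (0.0663), the Rspo1-positive one of passage 6 (0.0643) or that of passage 10 (0.0502). The medians were 0.00, 0.09 and -0.03 in the comparisons of Rspo1-positive and Rspo1-negative with untreated and of the treated groups with each other, and 0.03, 0.00 and 0.04 with the offset.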

How the data were processed

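RNA of sorted organoid cells was read as single-end 75 bp reads from 100 ng of total RNA, per the labels' protocols. Per the file headers, the authors deposited raw counts and FPKM per gene for each of the 9 libraries. Their tables of comparisons give a log2 fold change and an adjusted p-value, as deposited. Trimmomatic 0.35, FastQC 0.11.2, STAR 2.5.1b, featureCounts, DESeq2 and GRCm38 are named in the submitters' processing notes; strand setting and annotation were not given in the sources used here, so overlapping and antisense genes cannot be told apart.

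The deposited counts went into edgeR 4.0.16 under R 4.3.3 (TMM; filterByExpr with minimum count 10 and total 15; quasi-likelihood test), with 9 libraries in 1 fit by group, or by group and passage for passages, and Benjamini-Hochberg adjustment over 17011 genes at 0.05. The SE was taken as the size of the log2 fold change over the root of the F statistic. Levels are CPM on TMM-scaled library sizes. FPKM entered no test. The GC and length offset used a lowess fit (span 0.3) per library. Coordinates and exon overlaps are from GENCODE on GRCm38. Figures used Python with matplotlib. The scripts were tested on simulated data.

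Replicate numbers 1, 2 and 3 are passages 5, 6 and 10 per the labels. After removal of group means, libraries of the same passage correlated at 0.123 to 0.573 (9 pairs) and those of different passages at -0.476 to 0.0826 (18 pairs), so the passages pair the libraries. The main tests between groups did not use this pairing, and results with passage as a block are given beside them.

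Members were chosen by the name rule. Those named are a set of genes fixed as always named and every called gene, with values for each library where the mean log2 CPM was above 2; lower called genes were given too. Some genes that this rule names are not reported here. The members and lists were chosen with earlier results of these data known. DESeq2 1.42.0, the passage block, upper-quartile scaling, no filter, 6 libraries, the offset and leaving out each library were tried as alternatives.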

Additional observations from a re-analysis of the deposited data

How the results depend on the processing

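The number of the 105 genes called changed by more than 1.5 times under these settings. The genes tested were 74 in the main fit, 103 with no filter, 68 to 72 with only the 6 libraries compared and 74 to 77 without 1 library. Counts under those settings are therefore not all over the same genes. Rspo1-positive against untreated had 6 calls, 14 with passage as a replicate block and 15 with the block and the GC and length offset together. It had 3 with only the 6 libraries compared and 1 to 7 without 1 library at a time (3, 1 and 2 without the Rspo1-positive libraries of passages 5, 6 and 10). Of all genes tested, 5.21% were called in the main fit, 13.2% with the block, 15.8% with block and offset and 4.09% with the 6 libraries. Without the Rspo1-positive libraries of passages 5, 6 and 10 the share of all genes was 3.71%, 2.23% and 2.98%. Rspo1-positive against Rspo1-negative had 11 calls, and 25 with the block, 3 with the offset and 4 to 13 without 1 library (4 without the Rspo1-positive libraries of passages 5 or 6 or the Rspo1-negative one of passage 5, 7 without those of passage 10). Here 24.3% of all genes were called in the main fit, 38.9% with the block and 8.54% with the offset. The fits with 4 calls had 11.8%, 13.2% and 13.4% of all genes called, in the same order. Without the Rspo1-positive and Rspo1-negative libraries of passage 10 it was 14.0% and 12.5%. Rspo1-negative against untreated had 14 calls, and 24 with the block, 5 with the offset and 7 to 15 without 1 library (8 and 7 without the Rspo1-negative ones of passages 5 and 10). For all genes the shares were 21.9% in the main fit, 35.5% with the block and 8.8% with the offset. They were 12.6% and 10.3% without the Rspo1-negative libraries of passages 5 and 10. Passage 10 against 5 had 11 calls, and 1 to 18 without 1 library, the 18 without the untreated library of passage 6 and at most 3 without any library of passages 5 and 10. All genes were called at 9.07% in the main fit and 20.6% without the untreated library of passage 6. Without any 1 library of passages 5 and 10 it was 2.32% to 4.01%. Passage 6 against 5 had 2 calls, and 9 with no filter, 5 with DESeq2, 4 with the offset and 0 to 4 without 1 library, the 4 without the untreated library of passage 6 or 10. Shares of all genes were 2.49% (main), 3.83% (no filter), 5.0% (DESeq2) and 3.45% (offset). They were 4.84% and 2.75% without the untreated libraries of passages 6 and 10. Passage 10 against 6 had 9 calls, and 14 with no filter and 4 to 8 without 1 library (4 without the Rspo1-positive libraries of passages 6 or 10 or the Rspo1-negative one of passage 10). Upper-quartile scaling gave 5 higher and 6 lower there, DESeq2 5 and 7 and the offset 4 and 8, against 5 and 4. Beside these, 8.45% of all genes were called in the main fit and 7.89% with no filter. In the fits with 4 calls it was 4.6%, 3.15% and 4.45%, in the same order. Upper-quartile scaling called 8.72% of all genes, DESeq2 11.0% and the offset 11.4%. For Rspo1-positive against untreated the split of 4 higher and 2 lower was 4 and 1 with upper-quartile scaling and 4 and 5 with DESeq2. Among all called genes, 59.0% were higher in the main fit, 62.4% with upper-quartile scaling and 50.5% with DESeq2. Block and offset together gave 5 higher and 4 lower between the treated groups and 5 higher and 6 lower for Rspo1-negative against untreated. They called 23.6% and 21.8% of all genes in these comparisons. The cause of these changes was not tested, beyond the smaller number of libraries. No called gene of the 74 changed direction in any alternative run: of the 53 calls, 8 were kept in all and 45 were lost in at least 1. Among genes outside the rule, the offset reversed Erap1 (0.18 against untreated and -0.27 between the treated groups, and 0.20 and -0.28 with the block added), Canx (0.00, and 0.01 with the block added), Pias1 (-0.10 in both) and Ptpn2 (-0.02) between the treated groups. Counts limit the genes below about 1 CPM, 48 of the 105.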

Other observations

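The authors' deposited table of each comparison does not list H2-Q6 or H2-Q7. It lists 15807 genes, 57 of them among the 105. In the authors' deposited table, 10 of the 57 had an adjusted p under 0.05 for Rspo1-positive against untreated (3 higher, 7 lower), beside 13.9% of all 15807 listed genes. For Rspo1-negative against untreated it was 15 of the 57 (9 higher, 6 lower), beside 27.0% of all listed genes. For Rspo1-positive against Rspo1-negative it was 19 of the 57 (1 higher, 18 lower), beside 44.1% of all listed genes. Of these calls in the authors' deposited table, 4, 12 and 10 had the same direction and a call in the edgeR fit above.

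The standard catalytic subunits of the proteasome, which Psmb8, Psmb9 and Psmb10 replace under interferon, were looked at after the data had been seen. Psmb5, Psmb6 and Psmb7 together summed to 182 to 361 CPM in a library, highest in the Rspo1-negative libraries (266 to 361 CPM, against 182 to 241 CPM in the untreated and 214 to 216 CPM in the Rspo1-positive). Without the offset, Psmb6 was called higher for Rspo1-negative against untreated, 1 of the 3 genes, against 21.9% of all genes called. Psmb5 and Psmb6 were called lower for Rspo1-positive against Rspo1-negative, against 24.3% of all genes. With the offset for GC content and length, these calls were lost and Psmb7 alone was called in both comparisons, in the same directions. All genes were then called at 8.8% and 8.54%. The median log2 fold change went from 0.61 to 0.34 against untreated and from -0.55 to -0.26 between the treated groups. Psmb10 stood at 9.08 to 20 CPM over the 9 libraries.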
